A study of Danio rerio with 6 samples.

Results

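The subject is a set of 10 genes that zebrafish neutrophils use to fill their granules, leave the marrow and attack microbes: lyz, npsn, srgn, mmp13a, MMP9, adam8a, NCF1, CSF3R, illr4 and cebp1. The rule lists them by name and Ensembl gene ID and uses no measured value, although the list was drawn up with earlier results of these data known. They are 10 of the 31484 genes in the count tables. Total RNA was sequenced from kidney marrow, where adult fish form their blood, after pipetting it apart and straining it at 70 micron. The labels give 2 genotypes, tet2 -/- (called tet2 mutant here) and tet2 wt/wt (wild type), with 3 replicates each, numbered 1 to 3. All fish were 3 to 5 months old, and no treatment is named for either genotype. The tet2 allele, the sex of the fish and the number of fish behind each library are not described in the labels. No sort is named, so each library is a mixture of marrow cells and whatever else passed the filter. The comparison asks whether the transcripts of these genes differ with the tet2 genotype.

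Neutrophils are short-lived phagocytes that mature in the marrow under the control of C/EBP transcription factors and of the cytokine G-CSF, which acts through the receptor encoded by CSF3R. During maturation they store antimicrobial proteins and proteases in granules, and at a site of infection they release them and assemble an oxidase that makes superoxide. In zebrafish, lyz is widely used as a marker of neutrophils, and the kidney marrow is where adult fish make them.

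Values are CPM, counts scaled to library size with edgeR's TMM factors. Libraries held 46637322 to 49229143 counts in tet2 mutants and 41285460 to 47228518 in wild type, and every member had at least 3835 counts in every library. No member shares exon bases with another annotated gene. The targeted gene, TET2 in the name table, had 51.1, 45.1 and 30.4 CPM in tet2 mutants 1, 2 and 3, against 48.1, 52.5 and 48.1 CPM in wild type 1, 2 and 3, so its level did not separate the genotypes and could not check the labels. The libraries differed in what they held beside blood cells: zona pellucida (egg) transcripts summed to 351.8, 221.9 and 2207 CPM in tet2 mutants 1, 2 and 3 and to 3.44, 3.08 and 501.8 CPM in wild type 1, 2 and 3.

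None of the 10 members passed the test between genotypes, and no member separated them. All 10 were among the 21893 genes tested. At an adjusted p under 0.05 (edgeR quasi-likelihood test, two-sided, Benjamini-Hochberg over the genes tested) 0 of 10 members passed, against 0.301% of all genes tested. At an unadjusted p under 0.05 it was 0 of 10, against 11.9% of all genes, and DESeq2 and limma-voom also called 0 members. On simulated counts this test recovered 0 of 200 genes changed 2-fold, with or without the replicate number as a block. Of 200 genes changed 4-fold it recovered 77% without the block and 60% with it. Of its calls there, 8.9% and 13% were false. The simulated counts held no effect of the replicate number, so they do not show what the block can call in these data. A p that misses the threshold does not show that the genotypes are alike, and the 95% interval given for a gene says how large a difference its spread still allows. In 0 of 10 did all mutant libraries lie on one side of all wild type libraries, which happened in 18.2% of all genes. The log2 fold change, mutant minus wild type, was above 0 for 6 members (51.9% of all genes) and below 0 for 4, with a median of 0.03 beside 0.02 over all genes tested. For 9 of 10 it lay within 0.25 of 0, and MMP9 was the exception at 0.91. How many of all genes lay within 0.25 of 0 was not counted. A 95% interval of the fold change stayed within 2-fold either way for 8 of 10 members, beside 53.6% of all genes, and did not for lyz and MMP9. Most of all genes were less abundant than any member, and the share among genes of like abundance was not counted. With the replicate number as a block, 0 of 10 passed the adjusted threshold (2.14% of all genes), and 2 of 10, MMP9 and srgn, had an unadjusted p under 0.05, against 17.9% of all genes. In that fit 9 of 10 intervals, all but that of MMP9, stayed within 2-fold, beside 58.2% of all genes, again mostly less abundant ones. In RNA from mixed cells, the number of neutrophils, the RNA per neutrophil and RNA of the same genes from other cells cannot be told apart.

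**Figure D1:**
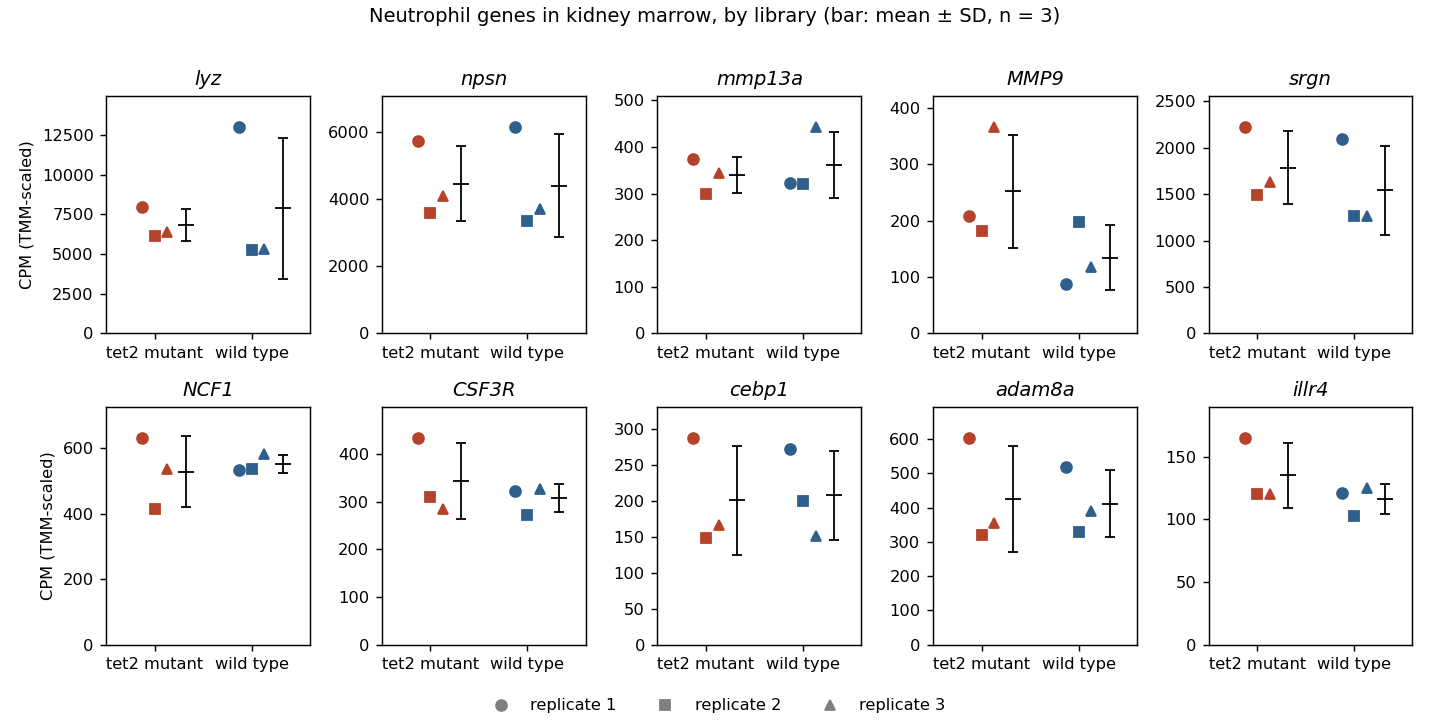
CPM (vertical axes, from 0) of each member in the 3 tet2 mutant (red) and 3 wild type (blue) libraries; symbols mark the replicate number, and the black bar is the mean ± SD (n = 3). In every panel the genotypes overlap; lyz in wild type 1 (13020 CPM) and MMP9 in tet2 mutant 3 (367 CPM) stand apart from the rest of their groups.

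Among the granule contents, lyz was the most abundant. It encodes lysozyme C, which cleaves bacterial cell walls (ENSDARG00000057789, GRCz10 chromosome 24, 23890689 to 23893626, minus strand, 603 exon bases). Per exon length it ranked 1 of all 31484 genes in the tables, at a mean of 12190 RPKM (CPM per kilobase of exon) over the 6 libraries. Its reads made up 0.768%, 0.613% and 0.671% of all counts in tet2 mutants 1, 2 and 3 and 1.21%, 0.535% and 0.558% in wild type 1, 2 and 3.

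Expression of lyz was 7955, 6132 and 6397 CPM in tet2 mutants 1, 2 and 3, against 13020, 5272 and 5330 CPM in wild type 1, 2 and 3. The single wild type library 1 was the highest of all 6, while the other two wild type libraries were the lowest. The means were 6828 ± 985 CPM in mutants and 7873 ± 4454 CPM in wild type (SD, n = 3 each), and the log2 fold change was -0.21 (SE 0.37; edgeR adjusted p = 0.863). That value has the wide 95% interval of -1.09 to 0.68. Without wild type 1 the log2 fold change was 0.36 (edgeR adjusted p = 0.385), so its sign changed when 1 library was left out.

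Nephrosin, the product of npsn, is a secreted zinc protease of the astacin family found in fish granulocytes (ENSDARG00000010423, chromosome 7, 38382223 to 38388219, minus strand). SLC7A9 lies across its span on the opposite strand without sharing an exon base. Expression was 5724, 3578 and 4082 CPM in tet2 mutants 1, 2 and 3, against 6166, 3347 and 3708 CPM in wild type 1, 2 and 3. Both libraries numbered 1 were high and the other 4 lay close together, in both genotypes. Its log2 fold change was 0.02 (SE 0.28; edgeR adjusted p = 0.987), with a 95% interval of -0.66 to 0.69. Per exon length npsn ranked 20 in the tables at 2710 RPKM.

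Serglycin, encoded by srgn (ENSDARG00000077069, chromosome 13, 22940131 to 22944004, minus strand), is the proteoglycan core on which mammalian leukocytes pack the contents of their granules. Its values were 2228, 1492 and 1635 CPM in tet2 mutants 1, 2 and 3, against 2092, 1264 and 1268 CPM in wild type 1, 2 and 3. The order of the libraries was again led by those numbered 1. For srgn the mutant library was above the wild type library of the same number 3 times out of 3, by 0.09, 0.24 and 0.37 on the log2 scale for numbers 1, 2 and 3. This held for srgn alone among the members, and its share over all genes was not counted. Mutants differed from wild type by a log2 fold change of 0.21 (SE 0.25; edgeR adjusted p = 0.780), and with the replicate number as a block it was 0.23 (SE 0.09), which also missed the threshold (edgeR adjusted p = 0.242).

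The ratio between granule genes was less steady than their order. Per exon length lyz exceeded npsn 3.77, 4.65 and 4.25 times in tet2 mutants 1, 2 and 3 and 5.73, 4.27 and 3.90 times in wild type 1, 2 and 3. It exceeded srgn 11.6 to 13.4 times in the mutant libraries and 13.6 and 13.7 times in wild type 2 and 3, but 20.2 times in wild type 1. The high lyz value of wild type 1 was therefore not matched in proportion by npsn or srgn.

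The secreted matrix proteases behaved differently from one another. Collagenase 3, encoded by mmp13a (ENSDARG00000012395, chromosome 10, 38649905 to 38676122, plus strand), cuts fibrillar collagen. It was present at 375, 299 and 345 CPM in tet2 mutants 1, 2 and 3, against 322, 320 and 444 CPM in wild type 1, 2 and 3. Its values spanned 1.48 times from lowest to highest library, the smallest such range among the members. On the log2 scale the fold change was -0.09 (SE 0.17; edgeR adjusted p = 0.867), and the 95% interval of the fold reached from 0.71 to 1.24.

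Gelatinase B, encoded by MMP9 (ENSDARG00000042816, chromosome 8, 24260273 to 24274708, plus strand), degrades basement membrane collagen and gelatin. Its level was 209, 181 and 367 CPM in tet2 mutants 1, 2 and 3, against 87.3, 198 and 118 CPM in wild type 1, 2 and 3. Tet2 mutant 3 was the highest and wild type 1 the lowest, but wild type 2 lay above tet2 mutant 2, so the genotypes overlapped. The means were 252 ± 100.4 CPM in mutants and 134.5 ± 57.2 CPM in wild type (SD, n = 3 each), a 1.88-fold difference with a 95% interval of 0.996 to 3.54. The log2 fold change of 0.91 (SE 0.38) had an unadjusted p of 0.051 and did not pass (edgeR adjusted p = 0.422).

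The MMP9 difference leaned on the libraries numbered 1 and 3. Within the same number, mutant minus wild type was 1.26 for number 1, -0.13 for number 2 and 1.64 for number 3 on the log2 scale. Without tet2 mutant 3 the log2 fold change was 0.51 (edgeR adjusted p = 0.675), and without both libraries numbered 3 it was 0.42 (edgeR adjusted p = 0.813). Tet2 mutant 3 was also the library with the most zona pellucida transcripts (2207 CPM). The part of egg-derived RNA in the MMP9 level was not tested. A fit with log2 zona pellucida CPM as a covariate gave a log2 fold change of 0.81 (edgeR adjusted p = 0.653). The covariate was lowest in wild type 1 and 2 (3.44 and 3.08 CPM), so this fit cannot fully tell it and the genotype apart. In wild type 1, MMP9 was lowest of all 6 libraries while lyz and npsn were highest.

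Per exon length, mmp13a exceeded MMP9 in 5 of the 6 libraries, by 1.81 and 1.67 times in tet2 mutants 1 and 2 and by 3.72, 1.63 and 3.80 times in wild type 1, 2 and 3. In tet2 mutant 3 the ratio was 0.948. Of the related proteases, the paralog mmp13b was scarce, at 0.18 RPKM against 113 RPKM for mmp13a, and the leukocyte metalloprotease mmp25b stood at 42.2 RPKM beside 61.7 RPKM for MMP9.

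The membrane-anchored protease gene adam8a (ENSDARG00000001452, chromosome 13, 24541031 to 24549186, plus strand) belongs to the ADAM family, whose mammalian ADAM8 sits on granulocytes and sheds surface proteins. It had 604, 321 and 354 CPM in tet2 mutants 1, 2 and 3, against 518, 328 and 390 CPM in wild type 1, 2 and 3. Both libraries numbered 1 were the highest, and those numbered 2 the lowest, of their genotype. Its log2 fold change was 0.05 (SE 0.29; edgeR adjusted p = 0.960), with a 95% interval of -0.63 to 0.73. Its paralog adam8b, by contrast, had 289, 166 and 176 CPM in tet2 mutants 1, 2 and 3, against 110, 124 and 136 CPM in wild type 1, 2 and 3, without overlap. The adam8b log2 fold change of 0.77 (SE 0.24) did not pass either (edgeR adjusted p = 0.271), and the difference between the paralogs was not tested.

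The NADPH oxidase was represented by NCF1 (ENSDARG00000033735, chromosome 5, 60747820 to 60760976, minus strand), the cytosolic organiser subunit that carries the complex to the membrane. NCF1 had 632, 415 and 538 CPM in tet2 mutants 1, 2 and 3, against 534, 537 and 583 CPM in wild type 1, 2 and 3. The 3 wild type libraries lay within 1.09 times of each other, inside the wider mutant range. Mutants differed from wild type by a log2 fold change of -0.06 (SE 0.17; edgeR adjusted p = 0.910), and the 95% interval of the fold reached from 0.73 to 1.26.

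Other oxidase genes did not pass either. Of 6 other oxidase genes tested, 0 passed, against 0.301% of all genes, with a median log2 fold change of 0.06. The smallest p among them belonged to the catalytic subunit cybb, with 420, 374 and 282 CPM in tet2 mutants 1, 2 and 3, against 443, 412 and 419 CPM in wild type 1, 2 and 3 (log2 fold change -0.24, SE 0.16; edgeR adjusted p = 0.621). Its membrane partner cyba had a log2 fold change of 0.18 (SE 0.18; edgeR adjusted p = 0.736). Per exon length NCF1, at 253 RPKM, exceeded cyba (134.9), cybb (111.1) and NCF4 (54.5), while the small GTPase gene rac2 stood at 299 RPKM.

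**Figure D2:**
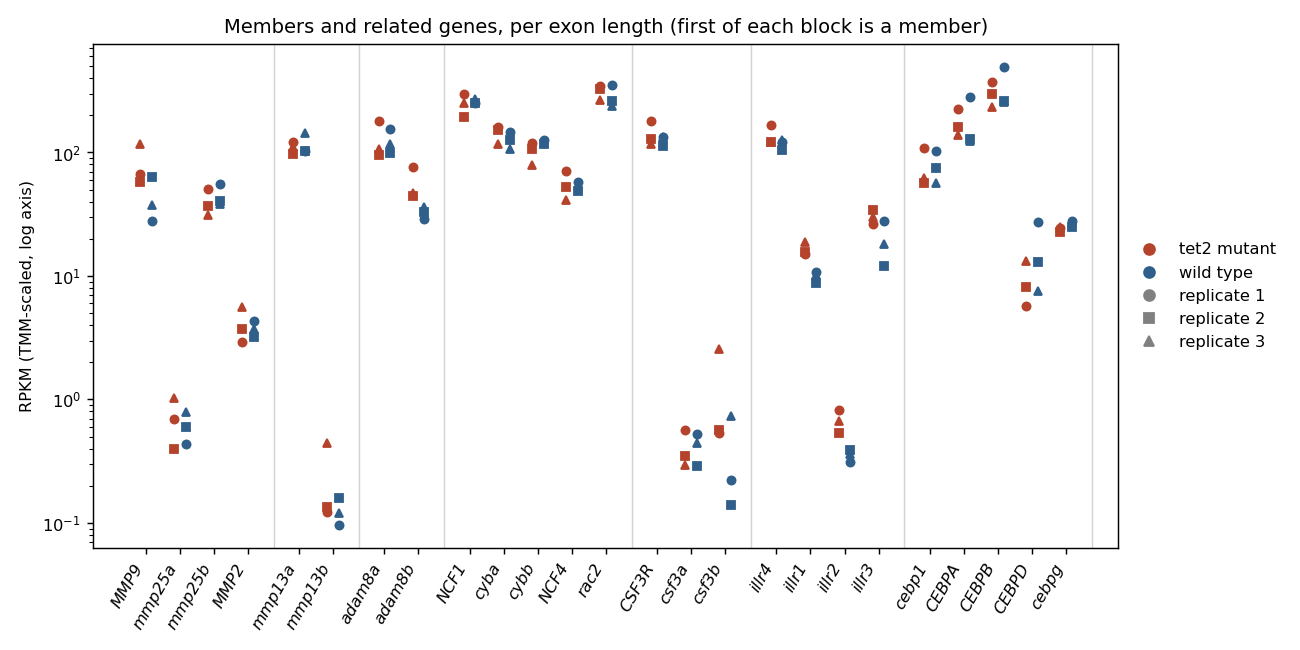
RPKM per library (log axis) of 7 members, each first in its block, with related genes to its right; red marks tet2 mutants, blue wild type, and symbols the replicate number. The level of mmp13a (113 RPKM) is far from that of mmp13b (0.18 RPKM), while NCF1 (253 RPKM) is close to rac2 (299 RPKM). All red points lie above the blue ones for adam8b, illr1 and illr2, and below them for cebpg. None of these passed the adjusted threshold, and the genotypes did not overlap in 18.2% of all genes tested.

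The receptor of G-CSF, CSF3R (ENSDARG00000045959, chromosome 16, 3207375 to 3230290, minus strand), drives granulocyte production. It was measured at 434, 311 and 286 CPM in tet2 mutants 1, 2 and 3, against 323, 273 and 327 CPM in wild type 1, 2 and 3. Tet2 mutant 1 lay above the other 5 libraries, which fell between 273 and 327 CPM. On the log2 scale the fold change was 0.16 (SE 0.18; edgeR adjusted p = 0.774). Its ligands were scarce, csf3a at 0.41 RPKM and csf3b at 0.79 RPKM over the 6 libraries, against 134 RPKM for the receptor.

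Among 8 genes of G-CSF signalling tested, 0 passed, against 0.301% of all genes, with a median log2 fold change of 0.05. JAK2 (ENSDARG00000018882), a kinase that carries the receptor's signal, had 118.5, 116.5 and 115 CPM in tet2 mutants 1, 2 and 3, against 93.45, 100.8 and 104 CPM in wild type 1, 2 and 3 (log2 fold change 0.23, SE 0.10; edgeR adjusted p = 0.452). The ligand gene csf3b had 0.547, 0.580 and 2.63 CPM in tet2 mutants 1, 2 and 3, against 0.228, 0.143 and 0.751 CPM in wild type 1, 2 and 3, and was highest, like MMP9, in tet2 mutant 3 (log2 fold change 1.73, SE 0.87; edgeR adjusted p = 0.501).

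The C-type lectin-like receptor gene illr4 (ENSDARG00000008075, chromosome 19, 40580243 to 40588680, minus strand) belongs to a small zebrafish family of immune-related lectin-like receptors. It had 165, 120 and 120.5 CPM in tet2 mutants 1, 2 and 3, against 121, 103 and 125 CPM in wild type 1, 2 and 3. Tet2 mutant 1 again stood above 5 libraries that lay close together. Its log2 fold change was 0.22 (SE 0.17; edgeR adjusted p = 0.671), with a 95% interval of -0.19 to 0.62.

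Of its 3 relatives 0 passed, against 0.301% of all genes. All 3 had a log2 fold change above 0, as did 51.9% of all genes, with a median of 0.74. The gene illr1 had 19.7, 20.4 and 24.8 CPM in tet2 mutants 1, 2 and 3, against 14, 11.5 and 13.4 CPM in wild type 1, 2 and 3 (log2 fold change 0.74, SE 0.15; edgeR adjusted p = 0.124). For illr2, at 0.429 to 0.652 CPM in mutants and 0.2503 to 0.310 CPM in wild type, the log2 fold change was 0.92 (SE 0.33; edgeR adjusted p = 0.343). Neither overlapped between genotypes, as in 18.2% of all genes. The reads of such related genes may be shared between copies, since the treatment of reads with several matches is not given in the sources used here. Per exon length illr4 exceeded illr3 5.15 times, illr1 9.65 times and illr2 248 times.

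The transcription factor gene cebp1 (ENSDARG00000101096, chromosome 24, 41119448 to 41130700, minus strand) encodes a C/EBP family member of zebrafish myeloid cells. Expression was 287, 148 and 166 CPM in tet2 mutants 1, 2 and 3, against 272, 199 and 150 CPM in wild type 1, 2 and 3. The libraries numbered 1 were the highest in both genotypes. Mutants differed from wild type by a log2 fold change of -0.05 (SE 0.32; edgeR adjusted p = 0.967), with a 95% interval of -0.81 to 0.71.

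Of 11 other genes tested with C/EBP, GFI1, SPI1, RUNX1 or IRF8 names, 0 passed, against 0.301% of all genes. Their median log2 fold change was -0.03. The myeloid factor spi1a had 292.5, 342 and 245 CPM in tet2 mutants 1, 2 and 3, against 251, 249 and 213 CPM in wild type 1, 2 and 3 (log2 fold change 0.30, SE 0.15; edgeR adjusted p = 0.504). CEBPZ, which is a C/EBP by name and works in ribosome assembly, had a log2 fold change of 0.36 (SE 0.16; edgeR adjusted p = 0.459). CEBPA and CEBPB, per exon length more abundant than cebp1 at 176 and 320 RPKM against 77.1 RPKM, had log2 fold changes of -0.03 (SE 0.36) and -0.16 (SE 0.30).

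**Figure D3:**
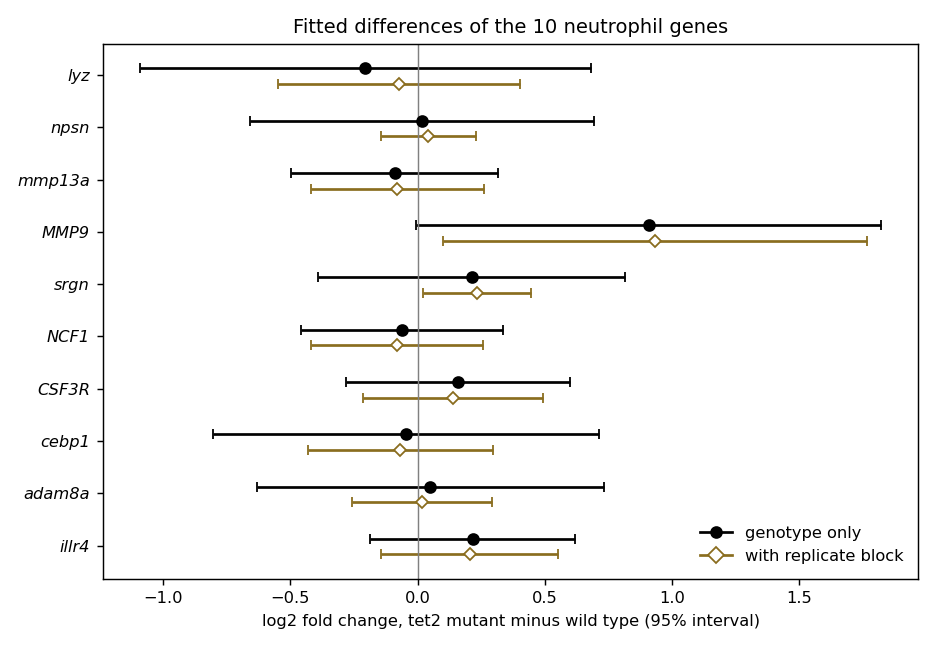
Log2 fold change of each member, tet2 mutant minus wild type, with its 95% interval, from the fit of genotype alone (black circles) and with the replicate number as a block (open diamonds). The point for MMP9 lies at 0.91 and those of the other 9 members within 0.25 of 0; intervals are narrower with the block, most of all for npsn (-0.14 to 0.23).

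For 9 of the 10 members, all but MMP9, the replicate number took a larger share of the variation than the genotype. With 3 numbers and 2 genotypes, the number has 1 more degree of freedom, so a larger share is common even without any effect. The share of all genes for which this held was not counted. The replicate numbers have no stated meaning in the labels, but libraries of the same number resembled each other across the transcriptome. Splitting each gene's variation in log2 CPM over the 6 libraries, the number took a median of 64.4% and the genotype 4.67% over the 10 members. Over all genes tested these medians were 43.0% and 19.7%, and over the 1357 genes at least as abundant as the lowest member they were 53.9% and 13.9%. The share of the number was highest for npsn (97.1%), adam8a (95.05%), cebp1 (88.6%) and srgn (83.7%). MMP9 was the member with the largest genotype share, 49.55%, against 16.8% for the number.

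Within genotypes, tet2 mutant 1 was the highest of its group for 9 of 10 members and tet2 mutant 2 the lowest for 9 of 10. In wild type, library 1 was the highest for 5 members, library 3 for 4 and library 2 for 1, and library 2 was the lowest for 7. The coefficient of variation among replicates had a median of 22.5% in mutants and 26.6% in wild type over the members. Over the 1357 genes at least as abundant it was 12.7% in mutants and 12.2% in wild type. The largest was that of lyz in wild type, 56.6%, and the smallest that of NCF1 in wild type, 4.96%.

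Together the members took 1.798%, 1.298% and 1.498% of all counts in tet2 mutants 1, 2 and 3, against 2.18%, 1.202% and 1.303% in wild type 1, 2 and 3. The mean deviation of the members from their own averages was 0.36, -0.20 and 0.02 on the log2 scale in tet2 mutants 1, 2 and 3, against 0.15, -0.19 and -0.15 in wild type 1, 2 and 3. Pan-leukocyte transcripts were also highest in the libraries numbered 1, summing to 7281, 6591 and 5300 CPM in tet2 mutants 1, 2 and 3, against 7012, 5389 and 5081 CPM in wild type 1, 2 and 3. Their part in the spread of the members was not tested.

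**Figure D4:**
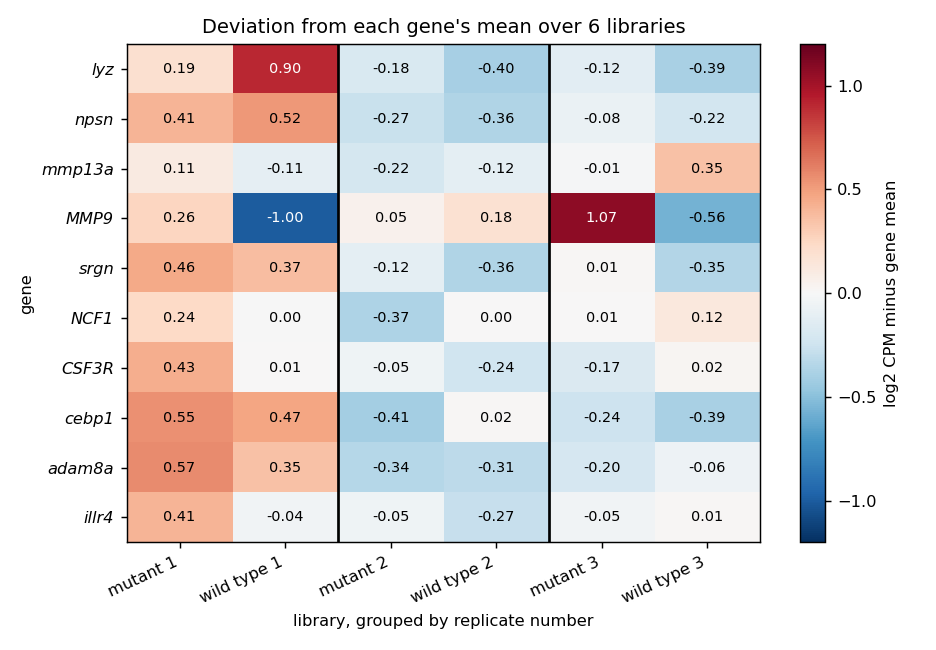
Log2 CPM of each member in each library minus that gene's mean over the 6 libraries (colour and printed value), with libraries in pairs of the same replicate number. For lyz, npsn, srgn, CSF3R, cebp1 and adam8a both columns numbered 1 are above the gene's mean, though CSF3R by only 0.01 in wild type 1. MMP9 departs from the rest, at -1.0005 in wild type 1 and 1.07 in tet2 mutant 3.

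In wild type 1, NCF1 and illr4 were near their means over the 6 libraries (-0.004 and -0.04 on the log2 scale) while lyz was 0.90 above its own. The ratio of lyz to NCF1 per exon length was 44.5, 52.3 and 42.0 in tet2 mutants 1, 2 and 3, against 86.2, 34.7 and 32.4 in wild type 1, 2 and 3. The mutant ratios thus lay between those of wild type 1 and those of the other two wild type libraries.

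Likeness to the mean log2 profile of the members over the 6 libraries was measured by the proportionality coefficient, which is 1 for profiles that rise and fall by the same amounts. Among the 10 members srgn (0.840), adam8a (0.814), illr4 (0.809) and npsn (0.796) were most like their common mean, and mmp13a (0.160) and MMP9 (0.007) least. Among genes outside the set with at least 20 CPM, the most alike were STX11 (0.972), SKI (0.967), SPTLC2 (0.962), il34 (0.956), VASP (0.955), PRKCD (0.952), ITPR1 (0.948) and rab11bb (0.946). STX11, a syntaxin of granule release in mammalian lymphocytes, had 194.5, 143 and 163 CPM in tet2 mutants 1, 2 and 3, against 170, 140 and 148 CPM in wild type 1, 2 and 3. PRKCD, a protein kinase C, had 469.5, 283 and 378 CPM in tet2 mutants 1, 2 and 3, against 388, 301 and 333 CPM in wild type 1, 2 and 3. With 6 libraries these coefficients describe the profiles and were given no test. Each member is itself part of the mean profile. The genes outside the set were picked as the highest of 6770, of which 26 lay above 0.9. Their coefficients therefore cannot be set against those of the members.

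Other genes known from neutrophils were counted in the same way. Of 29 such genes tested, 0 passed, against 0.301% of all genes. Their log2 fold changes were above 0 for 12 and below for 17, with a median of -0.04. Tet2 mutant 1 held the highest value of 16 of the 29, and the replicate number took a median of 65.6% of their variation. The chemotactic protein gene LECT2 (ENSDARG00000033227), chosen after its values were seen, with 3625, 2204 and 2505 CPM in tet2 mutants 1, 2 and 3, against 3643, 1913 and 2340 CPM in wild type 1, 2 and 3, was highest in the libraries numbered 1 of both genotypes. The smallest p belonged to the protease inhibitor gene TIMP2 (ENSDARG00000061226), with 30.3, 33.9 and 32.9 CPM in tet2 mutants 1, 2 and 3, against 37.8, 44.2 and 39.2 CPM in wild type 1, 2 and 3 (log2 fold change -0.32, SE 0.12; edgeR adjusted p = 0.353). The lipoxygenase gene ALOX5 (ENSDARG00000043085) came next, at under 1 CPM in all 6 libraries, and its log2 fold change was -1.12 (adjusted p = 0.384 by edgeR, SE 0.44). More abundant copies were TIMP2 ENSDARG00000075261 and ALOX5 ENSDARG00000057273, with means of 404.8 and 105.6 CPM over the 6 libraries. Their log2 fold changes were -0.05 (SE 0.30) and -0.06 (SE 0.23), with edgeR adjusted p of 0.960 and 0.936.

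Of 26 genes of the metalloprotease family and its inhibitors outside the set, 0 passed, against 0.301% of all genes. Of the 26, 4 had an unadjusted p under 0.05 by edgeR, against 11.9% of all genes. Those 4 include adam8b and TIMP2 ENSDARG00000061226. The list shares mmp25a, mmp25b and both TIMP2 copies with the neutrophil genes counted above, so the counts are not separate. In 7 of the 26 the genotypes did not overlap, against 18.2% of all genes. MMP15 (ENSDARG00000051962), a membrane-type metalloprotease, had 2.103, 2.98 and 2.15 CPM in tet2 mutants 1, 2 and 3, against 6.01, 5.01 and 4.33 CPM in wild type 1, 2 and 3 (log2 fold change -1.08, SE 0.26; edgeR adjusted p = 0.166).

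Markers of other marrow cells give the setting of these values, beside 0.301% of all genes past the threshold. Macrophage transcripts summed to 4897, 5730 and 4561 CPM in tet2 mutants 1, 2 and 3, against 4821, 5179 and 5123 CPM in wild type 1, 2 and 3, with 0 of 15 tested past the threshold. The smallest p of that list belonged to 2 copies of MFAP4, with log2 fold changes of -1.33 for ENSDARG00000038683 and -1.47 for ENSDARG00000038681 (edgeR adjusted p = 0.0896 and 0.269). These copies do not stand for the list, in which 6 log2 fold changes were above 0 and 9 below. Its median was -0.08, and its highest log2 fold change was 0.82. Erythroid transcripts summed to 3118 to 5155 CPM in mutants and 4616 to 5921 CPM in wild type, with 0 of 9 past the threshold. The red cell channel gene RHAG had a log2 fold change of -0.53 and alas2, for heme synthesis, one of -0.41 (edgeR adjusted p = 0.169 and 0.496).

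Lymphoid, thrombocyte and mast or eosinophil lists also had 0 genes past the threshold, against 0.301% of all genes. B cell transcripts summed to 657 to 816 CPM in mutants and 729 to 805 CPM in wild type, and T and NK cell transcripts to 182 to 241 CPM in mutants and 187 to 259 CPM in wild type. Of named genes in these lists, log2 fold changes were 0.64 for cd79b, -0.34 for ighm, 1.07 for EOMES (ENSDARG00000006640), -0.35 for ZAP70, -0.37 for NFE2, -0.28 for mpl, -0.83 for KIT and 0.34 for epx, with adjusted p from 0.254 to 0.761 (edgeR). These genes were named for their small p and do not stand for their lists. In the B cell list 6 log2 fold changes were above 0 and 3 below (median 0.15), and in the T and NK list 4 and 6 (median -0.15). For thrombocytes it was 1 above and 5 below (median -0.19), and for mast cells or eosinophils 3 and 1 (median 0.06). The mean of epx over the 6 libraries was only 1.83 CPM. In the pan-leukocyte list SASH3 had -0.36 and ptprc, which encodes CD45, 0.18 (edgeR adjusted p = 0.309 and 0.512). Of the 11 genes of that list tested, 8 log2 fold changes were above 0 and 3 below, with a median of 0.07.

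Transcripts from outside the blood were present in all libraries. In the kidney tubule list 1 of 11 genes tested passed the threshold, against 0.301% of all genes. It was the lactate transporter gene SLC5A12, lower in mutants, with 14.55, 18.5 and 13.7 CPM in tet2 mutants 1, 2 and 3, against 40.1, 52.8 and 43.0 CPM in wild type 1, 2 and 3 (log2 fold change -1.54, SE 0.17; edgeR adjusted p = 0.0405). Of the 11, 4 log2 fold changes were above 0 and 7 below, with a median of -0.75. In 6 of the 11 the genotypes did not overlap, against 18.2% of all genes. Skeletal muscle transcripts summed to 31.9 to 74.6 CPM in mutants and 164 to 217 CPM in wild type, with 0 of 10 past the threshold, and the log2 fold changes of TNNI2 (ENSDARG00000013752) and tpma were -2.36 and -2.03 (edgeR adjusted p = 0.053 and 0.0914). All 10 muscle genes tested had a log2 fold change below 0, and in 7 the genotypes did not overlap. In the egg list zpcx and zp2.1 had log2 fold changes of 4.92 and 2.78 (edgeR adjusted p = 0.287 and 0.616). Liver transcripts summed to 11.7, 1380 and 52.5 CPM in tet2 mutants 1, 2 and 3, against 25.1, 407 and 67.65 CPM in wild type 1, 2 and 3, and fabp10a and tfa had log2 fold changes of 1.87 and 1.945 (edgeR adjusted p = 0.656 and 0.679). The part of these tissues in the levels of the members was not tested.

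**Figure D5:**
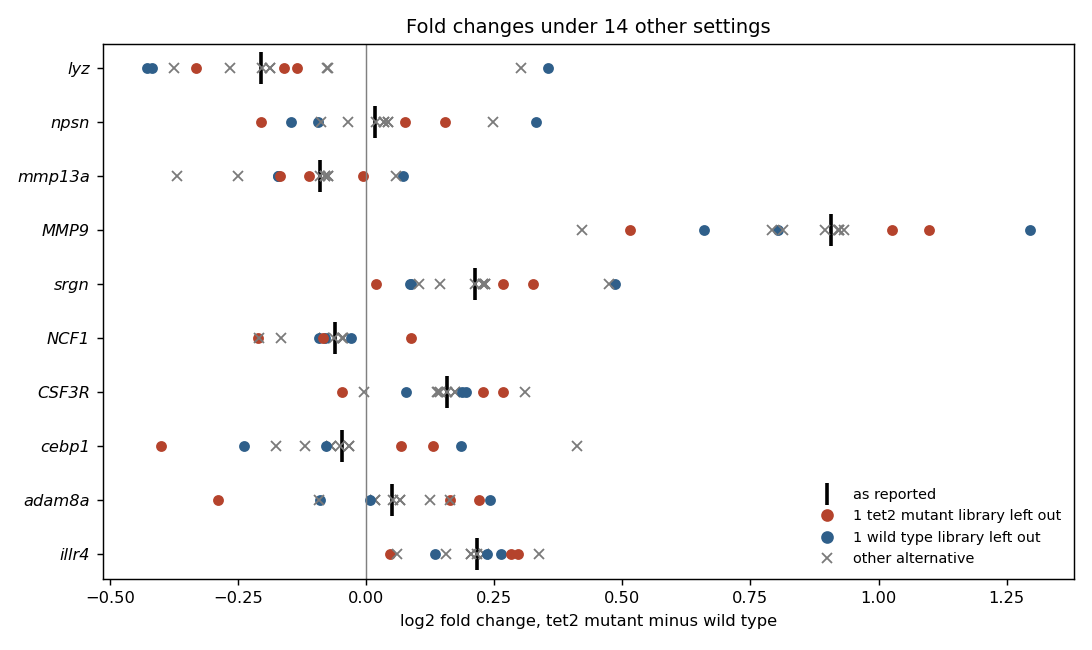
Log2 fold change of each member, tet2 mutant minus wild type, as reported (black bar) and under 14 other settings, with 1 tet2 mutant library left out in red, 1 wild type library left out in blue and other settings as grey crosses. MMP9, srgn and illr4 stay above 0 in all of them, while lyz spans -0.43 to 0.36 and cebp1 -0.40 to 0.41.

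Under 14 other settings of the fit the members still gave 0 calls. The log2 fold change of MMP9 lay between 0.42 and 1.30, that of srgn between 0.02 and 0.49 and that of illr4 between 0.05 and 0.34. The smallest adjusted p of any member under any setting was 0.187, for MMP9 by DESeq2 with Benjamini-Hochberg adjustment. Blocking on replicate number, 468 genes of the whole table passed in place of 66, and 0 of them were members. DESeq2 called 4.38% of the genes it tested, limma-voom 0.343%, a fit without both libraries numbered 3 1.43%, pan-leukocyte scaling 0.105% and the egg covariate 0.0639%, in each case with 0 members.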

How the data were processed

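The authors deposited raw counts per Ensembl gene, 1 table per library. Per the submitters' processing notes, Trimmomatic 0.36 and STAR 2.5.2b were used with the build GRCz10. How reads were assigned to genes (tool, strand, several matches, annotation) is not given in the sources used here, so reads of overlapping or near-identical genes are of uncertain origin.

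The counts were filtered with filterByExpr, leaving 21893 of 31484 genes, scaled by TMM and tested with edgeR 4.0.16 (limma 3.58.1, R 4.3.3) by the two-sided quasi-likelihood F test of genotype, with Benjamini-Hochberg adjustment over all genes tested and a threshold of 0.05. Intervals of 95% came from the fold change, its SE and the t distribution with the degrees of freedom of the fit. RPKM used the exon length in the tables, and log2 CPM a prior count of 2. DESeq2 1.42.0, limma-voom and other settings were alternatives. The tests were tested on simulated data.

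The labels do not say whether replicates came from separate fish, so p-values measure the spread between these libraries, which may be technical. No pair within a genotype was a copy (chi-square per degree of freedom 51.9 to 154). A floor of 3 counts equals 0.0609 to 0.0727 CPM and covers counting error only. Deviations from the genotype means over 17532 genes correlated at 0.437, 0.577 and 0.687 between libraries numbered 1, 2 and 3, and at -0.496 to 0.121 between different numbers. Deviations cancel out within a genotype for each gene, so high values for the same number force lower ones between different numbers. From the same-number values the numbers were taken to pair the libraries in the fit with a block, a reading from the data and not from the labels. The main fit was of genotype alone and used no pairing.

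The members and all gene lists were chosen with earlier results of these data known. Of 176 listed symbols 163 matched, to 185 gene IDs, and 81.8% of all IDs have a symbol. A capital symbol without its copy letter stands for every copy, and a few genes are in more than 1 list. Named genes were all members, from each list up to 4 genes past the threshold or else the 2 with the smallest p, and the 8 genes most like the members' mean profile among 6770 with a mean of at least 20 CPM. Relatives of the members (paralogs, oxidase subunits, C/EBP genes, ligands of CSF3R) were named beside these for their family, outside that rule. So were the more abundant copies of TIMP2 and ALOX5. No sequence was used, and 1 gene once planned for the oxidase list was left out and is not reported here.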

Additional observations from a re-analysis of the deposited data

How the results depend on the processing

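Of 140 member values under 14 alternatives, 0 passed the threshold and 19, in 7 members, changed sign. Leaving out 1 library at a time, the log2 fold change ran from -0.43 to 0.36 for lyz, -0.20 to 0.33 for npsn, -0.17 to 0.072 for mmp13a, -0.21 to 0.087 for NCF1, -0.046 to 0.27 for CSF3R, -0.40 to 0.18 for cebp1 and -0.29 to 0.24 for adam8a. Without both libraries numbered 3 it was -0.035 for npsn and 0.058 for mmp13a. Scaling to pan-leukocyte transcripts gave -0.087 for npsn, -0.0040 for CSF3R and -0.091 for adam8a, and moved the median of all genes to -0.12, against -0.09 for the members. The egg covariate gave 0.30 for lyz and 0.41 for cebp1. Over all genes, 66 passed (21 higher, 45 lower in mutants), and the number was 950 with DESeq2 (395 higher, 555 lower), 312 without both libraries numbered 3 (249 higher, 63 lower), 23 with pan-leukocyte scaling (4 higher, 19 lower), 14 with the egg covariate (2 higher, 12 lower) and 2 to 15 leaving out 1 library. With the replicate number as a block 468 passed (257 higher, 211 lower), and the block changed no member's call. The cause of these shifts was not tested. The median over members ran from -0.19 to 0.24 leaving out 1 library. The pooled SD between replicates of the members' mean log2 level was 0.2366. With 3 libraries per genotype, the spread of lyz and MMP9 leaves differences of over 2-fold within their intervals. Planned searches for promoter and protein motifs were not run.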

Other observations

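The genes here were chosen after their values were seen. The peroxidase gene listed as EPX (ENSDARG00000019521) had 3011, 2114 and 1932 CPM in tet2 mutants 1, 2 and 3, against 2344, 1546 and 1438 CPM in wild type 1, 2 and 3. Each mutant library lay above the wild type library of the same number, but the genotypes overlapped and the log2 fold change of 0.41 (SE 0.25) did not pass (edgeR adjusted p = 0.588). The listed symbol mpx, the myeloperoxidase gene of zebrafish neutrophils, matched no gene ID in the name table and is not among the neutrophil genes counted in the report. Whether this ID is mpx was not settled from the name table. A second LECT2 copy (ENSDARG00000090889) had 177, 95.6 and 95.1 CPM in tet2 mutants 1, 2 and 3, against 163, 164 and 159 CPM in wild type 1, 2 and 3. SOCS3 (ENSDARG00000026611), a feedback inhibitor of cytokine signalling, had 158, 143 and 67.1 CPM in tet2 mutants 1, 2 and 3, against 120, 35.2 and 37.5 CPM in wild type 1, 2 and 3. The complement receptor gene c5ar1 had 67.4, 57.0 and 40.8 CPM in tet2 mutants 1, 2 and 3, against 44.9, 38.3 and 37.25 CPM in wild type 1, 2 and 3. CEBPD, of the same family as cebp1, had 7.21, 10.2 and 16.6 CPM in tet2 mutants 1, 2 and 3, against 34.7, 16.25 and 9.43 CPM in wild type 1, 2 and 3. Like lyz, CEBPD was highest in wild type 1. It was lowest of all 6 libraries in tet2 mutant 1, where lyz was highest among the mutants (7955 CPM). The genotypes overlapped for this LECT2 copy, SOCS3, c5ar1 and CEBPD, and none passed. In that order, log2 fold changes were -0.40, 0.94, 0.46 and -0.82, with edgeR adjusted p of 0.600, 0.575, 0.438 and 0.598.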
